A study of Hormonema carpetanum with 4 samples.

Results

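The flavohemoprotein gene of the fungus Hormonema carpetanum, gene03962 with the symbol hmp, is described here in each of the 4 RNA-seq libraries of the study. It was taken by its gene number and is 1 of 10951 genes in the deposited expression table. It was chosen by its TPM values in these same libraries, so its levels are a description and none of its differences was tested. The study worked on production of enfumafungin, an antifungal triterpene glycoside, through mutagenesis and changes of the fermentation. Mycelium was sampled from the mutant ENF-5-29 at 19 °C on day 18, from the same mutant at 25 °C on day 18, from the mutant on day 14, and from the wild-type strain ATCC 74360 on day 14. The sample titles give no temperature for the day 14 cultures, and the extraction protocol names 18 days for both strains, so the ages used here are those of the titles. The labels describe the mutant as a single strain without naming its mutations, so a strain difference is that between these cultures.

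Flavohemoproteins, also called flavohemoglobins, join an oxygen-binding globin to a reductase that carries FAD and takes electrons from NADH or NADPH. With oxygen they turn nitric oxide into nitrate, and they are known in bacteria and fungi as the main enzymatic defence against nitric oxide. In Aspergillus nidulans a flavohemoglobin gene is induced together with the genes of nitrate use, and nitrate reductases can form nitric oxide from nitrite as a side reaction. The predicted product of gene03962 matched this layout, with 4 named domains that comprise a globin, an FAD-binding and a pair of NAD-binding domains. Its best Swiss-Prot hit was the flavohemoprotein of the bacterium Bordetella bronchiseptica and its best hit in the Nr database a putative flavohemoglobin of the fungus Delphinella strobiligena. No other gene of the table was annotated as a flavohemoprotein or nitric oxide dioxygenase, and no other gene had the same values in every library.

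Values are TPM, a measure that corrects for gene length and makes each library sum to 1000000. With 1 library per group, the spread between replicates was not measured and p-values cannot be given. Read depth is not kept in TPM, and the precision of a single value is therefore not known. From 8569 to 8942 genes per library reached 1 TPM. In RNA from whole mycelium, more transcript per cell and more cells that make it cannot be told apart.

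The flavohemoprotein gene had 5850 TPM in the mutant at 19 °C on day 18, 1055 TPM in the mutant at 25 °C on day 18, 133.4 TPM in the mutant on day 14 and 203.9 TPM in the wild type on day 14. Both day 18 libraries thus lay above both day 14 libraries, and the 19 °C library lay far above the other three. In the 19 °C library it ranked 18 of all genes and supplied 0.585% of all TPM, directly below a 30 kDa heat shock protein (gene08146, 5916 TPM) and directly above efuG (gene04133, 5361 TPM), a cytochrome P450 of the enfumafungin cluster. At 25 °C it ranked 176, between the chaperone gene hsp98 (gene10051) and ribosomal protein L10a (gene07347). It ranked 1334 in the mutant on day 14, next to the vesicle transport gene Rab-2 (gene07902), and 656 in the wild type on day 14, next to a UBX domain protein (gene10377).

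Even where it was lowest the gene stood above the median gene. It stood at 310.04 times the median of the genes at 1 TPM or more in the 19 °C library, 47.1 times at 25 °C, 5.12 times in the mutant on day 14 and 13.1 times in the wild type. The share of genes below it was 99.8%, 98.4%, 87.8% and 94.01% in the same order of libraries. The order of levels was therefore 19 °C, 25 °C, wild type, mutant on day 14, and with single libraries the spread needed to separate the last pair was not measured.

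**Figure D1:**
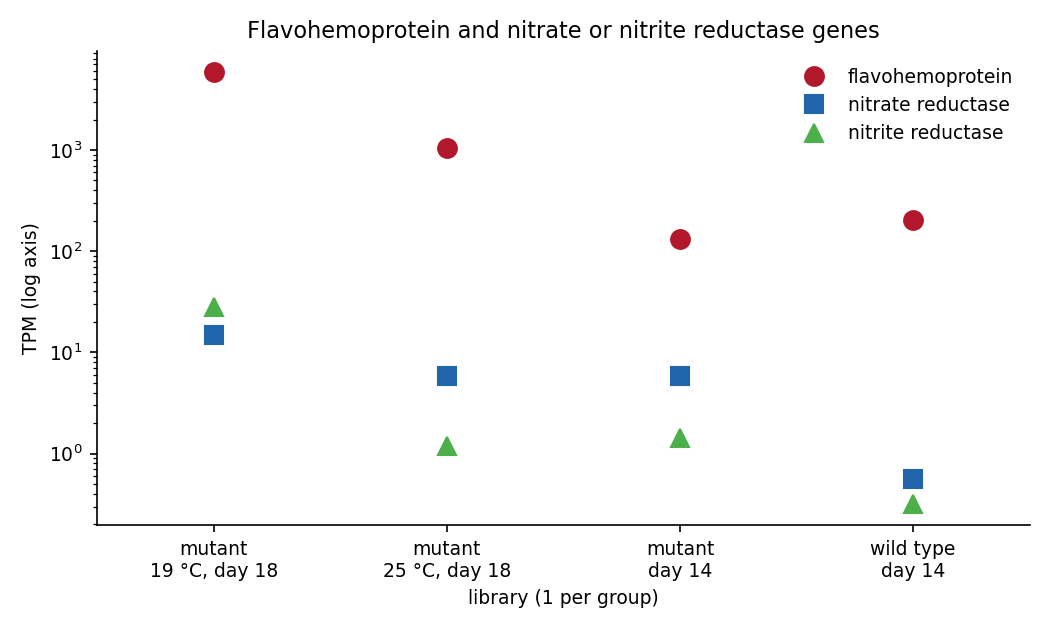
TPM on a log axis of the flavohemoprotein gene and of the nitrate and nitrite reductase genes in the 4 libraries, with 1 point per gene and library and no error bars because each group has 1 library. The flavohemoprotein gene reaches 5850 TPM at 19 °C, where both reductase genes are also at their highest, and the nitrite reductase gene is at 28.1 TPM there and at most 1.42 TPM elsewhere.

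Between the temperatures, the flavohemoprotein gene was 5.55-fold higher at 19 °C than at 25 °C in the mutant on day 18. Folds next to TPM values are plain ratios, whereas log2 ratios are those of TPM plus 1. The log2 ratio of 2.47 was exceeded by 139 of 9064 genes tested, where tested means at 1 TPM or more in either library. At 19 °C, 10.9% of them were higher by 2-fold or more and 21.4% lower by as much. The median of all genes was -0.21, and the flavohemoprotein lay 2.68 above it.

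Over time the gene was 7.91-fold higher in the mutant at 25 °C on day 18 than in the mutant on day 14, with a log2 ratio of 2.97, against a median of -0.30 over 9236 genes. In that comparison 14.1% of genes were past 2-fold in the higher direction on day 18 and 24.4% in the lower. The 19 °C library was 43.9-fold higher than the mutant on day 14, with a log2 ratio of 5.44 against a median of -0.55 over 9119 genes, of which 7.97% were past 2-fold in the higher direction and 27.9% in the lower. In this last comparison 2 genes had a larger log2 ratio, both with no database hit. One (gene05911) was listed at 83.7 TPM at 19 °C and at 0 in the other three libraries, and the other (gene10291) had 813.1 TPM at 19 °C, was listed at 0 at 25 °C, and had 12.4 TPM in the mutant and 11.3 TPM in the wild type on day 14. Both day 18 comparisons use the same day 14 library, and since its temperature is not given, age and temperature cannot be told apart in them.

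Between the strains on day 14 the gene stood at 133.4 TPM in the mutant and 203.9 TPM in the wild type, so it was 1.53-fold lower in the mutant, with a log2 ratio of -0.61 that did not reach 2-fold. The whole table was shifted the other way in this pair of libraries, with a median of 0.64 over 9272 genes, of which 40.7% were past 2-fold in the higher direction in the mutant and 14% in the lower. The flavohemoprotein lay 1.25 below that median, with 1870 genes lower in ratio. When the libraries were instead set to a common median ratio, its log2 ratio was -1.38, which is past 2-fold.

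**Figure D2:**
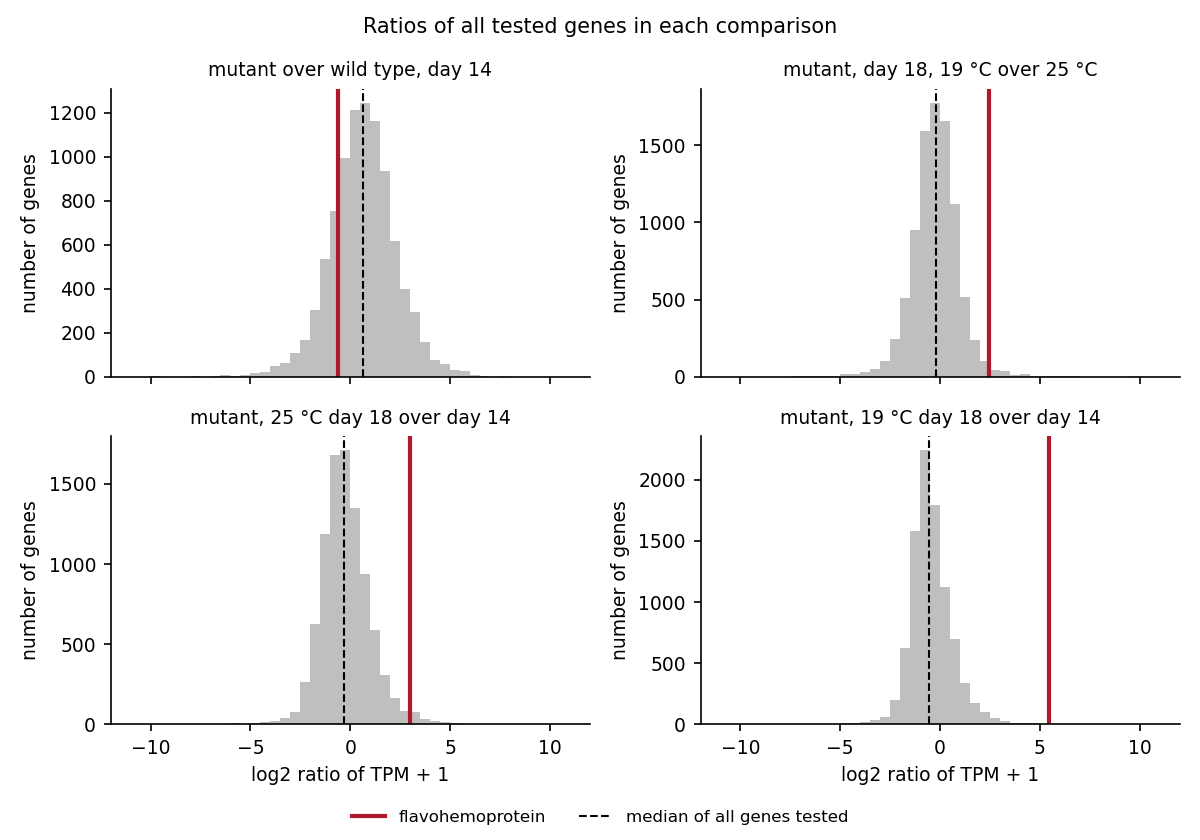
Number of tested genes by log2 ratio of TPM plus 1 in the 4 comparisons, in bins of 0.5, with the flavohemoprotein gene as a solid red line and the median of all genes tested as a dashed line. The flavohemoprotein sits left of the median between the strains, at -0.61, and in the far right tail at 19 °C on day 18 over day 14, at 5.44.

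The table held 2 genes with nitrate reductase or nitrite reductase in the Swiss-Prot description, which carry consecutive gene numbers. Nitrate reductase (gene06169), the molybdenum enzyme that reduces nitrate to nitrite, had 14.7 TPM at 19 °C, 5.83 TPM at 25 °C, 5.80 TPM in the mutant on day 14 and 0.56 TPM in the wild type. Nitrite reductase (gene06170), which reduces nitrite to ammonium, had 28.1 TPM, 1.18 TPM, 1.42 TPM and 0.32 TPM in the same libraries. Both genes were thus highest at 19 °C, as the flavohemoprotein gene was, but far below it in level in each library.

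On the log2 scale of TPM plus 1, nitrate reductase was 1.20 and nitrite reductase 3.74 higher at 19 °C than at 25 °C, and for nitrite reductase the plain ratio was 23.8-fold. Both were also past 2-fold at 19 °C on day 18 over day 14, at 1.21 and 3.59. At 25 °C on day 18 over day 14 the flavohemoprotein had a log2 ratio of 2.97, nitrate reductase 0.01 and nitrite reductase -0.15, which turned to 0.05 when the libraries were set to a common median ratio. Between the strains nitrate reductase was 2.12 higher in the mutant and nitrite reductase 0.87, the opposite direction to the flavohemoprotein. All the wild-type values and the 25 °C and day 14 values of nitrite reductase are low, near or below 1.5 TPM.

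Of 12 genes for nitrate or nitrite uptake and nitrogen regulators, 11 could be compared between the temperatures, and 2 passed 2-fold in each direction, with a median of 0.28 beside the 10.9% and 21.4% of all genes. The widest difference was that of a formate or nitrite transporter family gene (gene08453), at 110.03 TPM at 19 °C, 5.31 TPM at 25 °C, 23.3 TPM in the mutant on day 14 and 2.41 TPM in the wild type. Like the flavohemoprotein it was highest at 19 °C, but its 25 °C value was below that of the mutant on day 14. Another gene of this family (gene01690) had 16.1 TPM at 19 °C, 11.3 TPM at 25 °C, 17.5 TPM in the mutant on day 14 and 110.7 TPM in the wild type, where it was highest. The gene annotated as a nitrate transporter with the symbol narK (gene00150) did not exceed 6.24 TPM in any library, and a further nitrate transporter hit (gene08379) did not exceed 1.90 TPM.

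The regulators had other patterns. The gene for areA (gene08556), a GATA factor that in Aspergillus opens the use of poorer nitrogen sources, had 31.6 TPM at 19 °C, 38.6 TPM at 25 °C, 23.05 TPM in the mutant on day 14 and 7.23 TPM in the wild type. A gene described as the nitrate regulator nirA (gene09647) had 12.9 TPM at 19 °C beside 3.20 TPM at 25 °C, and 21.5 TPM and 7.59 TPM in the mutant and the wild type on day 14. One of 2 hits to nit-4, the Neurospora activator of nitrate assimilation genes (gene03328), had 1.5 TPM at 19 °C, 11.8 TPM at 25 °C, 19.8 TPM in the mutant on day 14 and 5.72 TPM in the wild type, so it was lowest in the library where the flavohemoprotein was highest. The other (gene06780) was lowest at 19 °C, at 14.8 TPM, and highest at 25 °C, at 32.8 TPM. The nmr gene (gene10541), whose Neurospora product represses the areA type of factor, had 24.97 TPM at 19 °C, 43.5 TPM at 25 °C, 58.8 TPM in the mutant on day 14 and 13.7 TPM in the wild type.

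Other enzymes that act on nitric oxide products or nitro compounds did not share the flavohemoprotein pattern, and none of the 8 was highest at 19 °C. S-nitrosoglutathione reductase (gene09146), which breaks down the adduct of nitric oxide and glutathione as well as formaldehyde, had 593.2 TPM at 19 °C, 529.9 TPM at 25 °C, 946.3 TPM in the mutant on day 14 and 999.2 TPM in the wild type. The flavohemoprotein gene was thus above it in both day 18 libraries and below it in both day 14 libraries. Between the temperatures 4 of the 8 passed 2-fold, all higher at 19 °C, with a median of 0.85, beside 10.9% of all genes higher, 21.4% lower and an all-gene median of -0.21. At 19 °C on day 18 over day 14 none passed 2-fold and the median was -0.39, beside 7.97% and 27.9% of all genes and an all-gene median of -0.55. With the libraries set to a common median ratio, 2 were higher and 0 lower in that comparison, and the median turned to 0.15. The list held 16 genes as first written, and 8 were left out after values were seen. As first written, 5 of 15 tested genes were past 2-fold higher at 19 °C than at 25 °C and 0 lower, with a median of 0.39. At 19 °C on day 18 over day 14 that version had 1 higher and 1 lower, with a median of -0.23.

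The 4 genes higher at 19 °C than at 25 °C all carried a nitronate monooxygenase domain, that of flavoenzymes which oxidise alkyl nitronates. One of them with a best hit to an NADH:quinone reductase (gene10559) had 118.05 TPM at 19 °C beside 48.3 TPM at 25 °C, against 176.0 TPM in the mutant and 37.4 TPM in the wild type on day 14. A nitronate monooxygenase gene (gene02317) had 29.9 TPM and 12.9 TPM at the same temperatures, and 54.1 TPM and 43.97 TPM in the mutant and the wild type on day 14. A nitronate monooxygenase gene outside these 4 (gene05807) was lower in the mutant than in the wild type on day 14, at 10.3 TPM in the mutant and 36.9 TPM in the wild type. A nitroreductase family gene (gene03708), with a best hit to the yeast fatty acid repression mutant protein 2, had 385.7 TPM at 19 °C, 549.4 TPM at 25 °C, 253.05 TPM in the mutant on day 14 and 376.6 TPM in the wild type.

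A flavohemoprotein needs heme and FAD as cofactors. Of 10 genes of heme synthesis none passed 2-fold between 19 °C and 25 °C, where the median was 0.27, beside 10.9% of all genes higher and 21.4% lower. One of them, coproporphyrinogen-III oxidase, lay just inside the threshold at a log2 ratio of 0.98 and past it, at 1.17, with the libraries set to a common median ratio. At 19 °C on day 18 over day 14 there was 1 gene in each direction, beside 7.97% and 27.9% of all genes. The gene for 5-aminolevulinate synthase (gene09256), which makes the first precursor of heme, had 107.9 TPM at 19 °C, 152.4 TPM at 25 °C, 104.6 TPM in the mutant on day 14 and 99.99 TPM in the wild type. The next enzyme, delta-aminolevulinic acid dehydratase (gene04210), had 106.6 TPM, 200.7 TPM, 55.9 TPM and 5.07 TPM in the same libraries. Ferrochelatase (gene02770), which inserts the iron, lay between 116.05 TPM and 144.0 TPM in the mutant and had 17.7 TPM in the wild type. Coproporphyrinogen-III oxidase (gene07879), which acts late in the pathway, had 255.3 TPM at 19 °C, 129.0 TPM at 25 °C, 233.8 TPM in the mutant on day 14 and 687.8 TPM in the wild type, its highest value.

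Not every gene of the same list leads to heme. Uroporphyrinogen-III C-methyltransferase (gene01148), the first enzyme toward siroheme, the prosthetic group of nitrite and sulfite reductases, had 20.2 TPM at 19 °C, 15.3 TPM at 25 °C, 5.63 TPM in the mutant on day 14 and 2.57 TPM in the wild type. It was the gene of the list with the largest log2 ratio at 19 °C on day 18 over day 14, at 1.68, and the only one past 2-fold in the higher direction. The one past 2-fold in the lower direction was protoheme IX farnesyltransferase (gene07476), which by its name acts on finished heme. Its log2 ratio was -1.76, with 7.62 TPM at 19 °C, 14.2 TPM at 25 °C, 28.1 TPM in the mutant on day 14 and 9.03 TPM in the wild type.

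Among 12 genes for riboflavin, FAD and the NADPH-forming pentose phosphate steps, 2 were higher and 2 lower at 19 °C than at 25 °C, beside 10.9% and 21.4% of all genes. The median of the list was -0.04, and it turned to 0.15 with the libraries set to a common median ratio. Riboflavin synthase (gene04449) had 299.9 TPM at 19 °C beside 135.8 TPM at 25 °C, and the riboflavin transporter MCH5 (gene01283) had 23.9 TPM and 9.96 TPM. In the mutant on day 14 MCH5 was higher still, at 33.8 TPM. The 2 lower genes were 6-phosphogluconolactonase hits, gene05679 at 4.69 TPM beside 21.1 TPM and gene02571 at 23.6 TPM beside 54.0 TPM. With the libraries set to a common median ratio gene02571 moved inside 2-fold, from -1.16 to -0.97. FAD synthase (gene06876) had 128.2 TPM at 19 °C, 75.6 TPM at 25 °C, 184.8 TPM in the mutant on day 14 and 333.7 TPM in the wild type. A 6-phosphogluconate dehydrogenase gene (gene07922) had 6.65 TPM at 19 °C against 45.6 TPM in the mutant on day 14, the lowest ratio of the list.

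Among 7 genes listed for the molybdenum cofactor, which nitrate reductase carries, 0 were higher and 2 lower at 19 °C than at 25 °C. The shares of all genes were 10.9% and 21.4%. Both lower genes were hits to molybdenum cofactor sulfurase, at log2 ratios of -1.30 (gene04296) and -1.80 (gene09584, at most 3.85 TPM). No other gene of the list passed 2-fold between the temperatures. A molybdenum cofactor sulfurase gene (gene04296) had 16.3 TPM at 19 °C, 41.6 TPM at 25 °C, 8.64 TPM in the mutant on day 14 and 22.5 TPM in the wild type. The sulfur carrier subunit of molybdopterin synthase (gene06332) had 80.7 TPM, 52.7 TPM, 175.1 TPM and 687.6 TPM in the same libraries.

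Nitric oxide blocks cytochrome c oxidase, the terminal enzyme of respiration, and damages the iron-sulfur enzyme aconitase, whereas alternative oxidase keeps working in its presence. Alternative oxidase (gene00570) had 386.4 TPM at 19 °C beside 356.3 TPM at 25 °C on day 18, against 63.02 TPM in the mutant and 60.4 TPM in the wild type on day 14. It shared with the flavohemoprotein the higher level in both day 18 libraries but not the difference between temperatures, with log2 ratios of 2.60 and 2.48 over the mutant on day 14 and 0.12 between the temperatures.

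In the whole list of 17 genes, which included assembly factors and a copper chaperone of cytochrome c oxidase, 1 passed 2-fold between the temperatures. The shares of all genes were 10.9% higher and 21.4% lower. Cytochrome c oxidase subunit 8 (gene07046) lay just inside the threshold between the temperatures, at a log2 ratio of 0.97. It was past the threshold, at 1.16, with the libraries set to a common median ratio. At 19 °C on day 18 over day 14 there were 3 higher and 2 lower, with a median of -0.17, beside 7.97% and 27.9% of all genes and an all-gene median of -0.55. With the libraries set to a common median ratio there were 6 higher and 1 lower, and the median turned to 0.38. Cytochrome c oxidase subunit 13 (gene02585) was the one higher at 19 °C, at 784.1 TPM against 304.4 TPM at 25 °C, and had 1334 TPM in the mutant and 477.7 TPM in the wild type on day 14. The aconitase gene with the highest level (gene01839) had 421.97 TPM at 19 °C, 718.4 TPM at 25 °C, 476.3 TPM in the mutant on day 14 and 181.8 TPM in the wild type. The copper chaperone gene of cytochrome c oxidase (gene05107) had 8.64 TPM at 19 °C, 9.54 TPM at 25 °C and 13.5 TPM in the wild type, and was listed at 0 in the mutant on day 14.

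Among the genes listed for glutamate and glutamine metabolism, none was highest at 19 °C. Of 7 such genes 5 were tested between the temperatures, with 0 higher and 2 lower at 19 °C, beside 10.9% and 21.4% of all genes. The lower genes were NAD-specific glutamate dehydrogenase (gene00257), at a log2 ratio of -1.92, and glutamate synthase, at -1.90. NADP-specific glutamate dehydrogenase (gene04489) had 630.7 TPM at 19 °C, 726.2 TPM at 25 °C, 1043 TPM in the mutant on day 14 and 202.1 TPM in the wild type. Glutamine synthetase (gene08927) had 210.2 TPM, 403.95 TPM, 506.3 TPM and 96.1 TPM. Glutamate synthase (gene07398) had 25.4 TPM, 97.2 TPM, 47.7 TPM and 1.69 TPM, the largest strain difference of the list, with a log2 ratio of 4.18.

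Within the 23 genes for purine and urea breakdown, uricase (gene01581), which opens the purine ring by oxidising uric acid, had 1098 TPM at 19 °C beside 1290 TPM at 25 °C on day 18, against 145.7 TPM in the mutant and 251.8 TPM in the wild type on day 14. Its order across the day 14 libraries was that of the flavohemoprotein, with the mutant below the wild type, but it was not higher at 19 °C than at 25 °C. Xanthine dehydrogenase (gene06048), the molybdenum enzyme that makes uric acid, had 31.1 TPM at 19 °C, 87.1 TPM at 25 °C, 14.3 TPM in the mutant on day 14 and 3.28 TPM in the wild type. Of 17 tested genes of this list, 2 were higher and 4 lower at 19 °C than at 25 °C. Over the 11 lists described here, markers of cell form included, 13 of 113 tested genes passed 2-fold in the higher direction at 19 °C and 23 in the lower. These are 11.5% and 20.4%, close to the 10.9% and 21.4% of all genes. Of the 23 lower genes, however, 10 were hyphal markers and 1 was a spore regulator, and neither of these lists held a higher gene. The pooled shares therefore do not describe the nitrogen, cofactor and respiration lists alone.

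**Figure D3:**
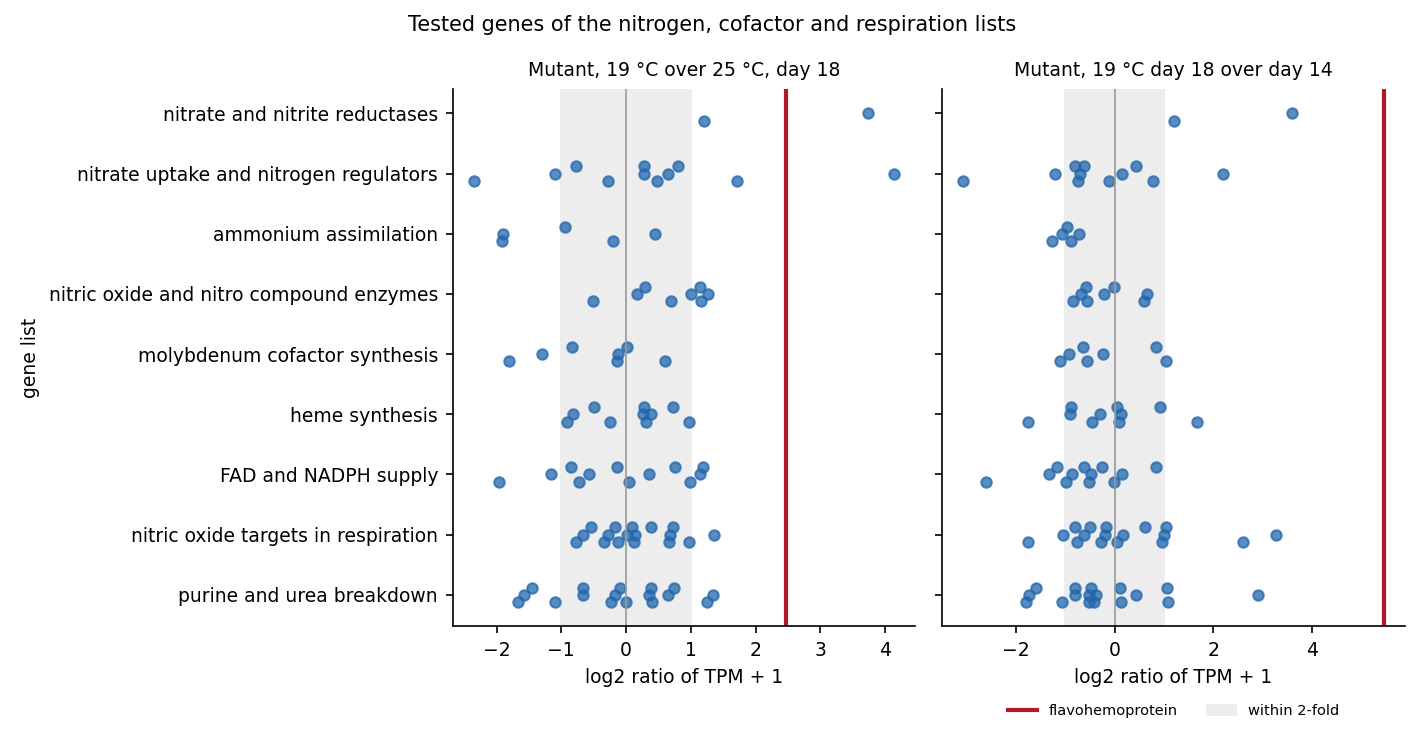
Log2 ratio of TPM plus 1 of each tested gene in 9 lists, in the mutant at 19 °C over 25 °C on day 18 (left) and at 19 °C on day 18 over day 14 (right), with the flavohemoprotein as a red line and grey shading within 2-fold. Between the temperatures the nitrite reductase gene, at 3.74, and a formate or nitrite transporter family gene, at 4.14, lie beyond the flavohemoprotein, and on the right no gene of these lists does.

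The labelled tissue was mycelium, and 18 genes for septins, chitin synthases with their regulators and a Woronin body membrane protein were measured as hyphal markers. All had a value above 0 in each library, and their summed level was 1295 TPM at 19 °C, 1735 TPM at 25 °C, 1673 TPM in the mutant on day 14 and 1257 TPM in the wild type. Between the temperatures 10 of 17 tested members passed 2-fold, all lower at 19 °C, with a median of -1.14, beside 21.4% of all genes lower. These 10 were chitin synthases and their regulators, in the direction opposite to the flavohemoprotein. The septins spn2, spn3 and spn4 and the Woronin body membrane protein wscA were not among them, with log2 ratios of 0.21, 0.28, 0.44 and 0.39. Neither were a chitin synthase A gene (gene08947), at -0.81, and the chitin synthase export chaperones (gene05685 and gene08159), at -0.27 and -0.12. With the libraries set to a common median ratio 8 members were past 2-fold, all lower, with a median of -0.95. Chitin synthase D (gene06387) had 4.22 TPM at 19 °C beside 47.9 TPM at 25 °C. Chitin synthase regulatory factor 4 (gene01719) had 12.3 TPM at 19 °C, 121.4 TPM at 25 °C, 25.8 TPM in the mutant on day 14 and 9.43 TPM in the wild type. Of 8 genes for spore and developmental regulators, 7 were tested between the temperatures, with 0 higher and 1 lower at 19 °C. The shares of all genes were 10.9% and 21.4%, and at a common median ratio there was 1 gene in each direction. The list summed to 166.4 TPM, 242.3 TPM, 290.2 TPM and 124.5 TPM in the 4 libraries. The gene for wetA (gene02208), which acts in spore maturation in Aspergillus, was at or below 0.11 TPM throughout. Every other gene of the list was above 1 TPM in each library. Of these, abaA (gene06725) had 4.55 TPM at 19 °C and 1.89 TPM at 25 °C. On day 14 it had 3.75 TPM in the mutant and 1.05 TPM in the wild type. The part of cell form in the flavohemoprotein difference was not tested.

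Genes with a pattern like that of the flavohemoprotein were sought among 5354 genes with a Swiss-Prot name and at least 10 TPM in some library. Likeness was the root mean square distance of log2 of TPM plus 1, centred for each gene, over 4 libraries. The 8 nearest lay at distances of 0.78 to 1.03 log2 units, with Pearson correlations of 0.881 to 0.998 across these 4 libraries, given as a description. All 8 were highest at 19 °C, which the measure favours, and 5 had the same order of all 4 libraries. For some of these 5 the order rests on nearly equal values. An acetyltransferase hit (gene06241) had 1.05 TPM at 25 °C and 1.04 TPM in the wild type. A pirin-like gene (gene05017) had 176.1 TPM in the mutant and 181.4 TPM in the wild type on day 14.

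The nearest was a catalase-related peroxidase (gene06597), a heme enzyme of the catalase family, with 127.05 TPM at 19 °C, 46.5 TPM at 25 °C, 11.3 TPM in the mutant on day 14 and 13.4 TPM in the wild type. A ketoreductase similar to nor1 of aflatoxin synthesis (gene09616) had 93.3 TPM, 27.3 TPM, 8.33 TPM and 11.3 TPM in the same libraries and kept the same order. A cyclohexanol dehydrogenase hit (gene05620) had 788.3 TPM, 178.6 TPM, 54.99 TPM and 17.2 TPM, and a hit to the reductase pytE (gene04320) 113.6 TPM, 37.5 TPM, 12.04 TPM and 4.87 TPM, both with the wild type lowest.

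A pirin-like gene (gene05017) was high at both temperatures, with 2045 TPM at 19 °C beside 1925 TPM at 25 °C, against 176.1 TPM in the mutant and 181.4 TPM in the wild type on day 14. A dehydrogenase similar to dmxR12 (gene09461) and an acetyltransferase similar to aurG (gene06241) had the steepest differences between the temperatures of the 8, at 427.2 TPM and 48.3 TPM at 19 °C and at no more than 25.9 TPM and 1.05 TPM elsewhere. The rhamnose breakdown gene for 2-keto-3-deoxy-L-rhamnonate aldolase (gene06525) had 97.2 TPM at 19 °C, 59.5 TPM at 25 °C, 10.1 TPM in the mutant on day 14 and 18.04 TPM in the wild type.

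**Figure D4:**
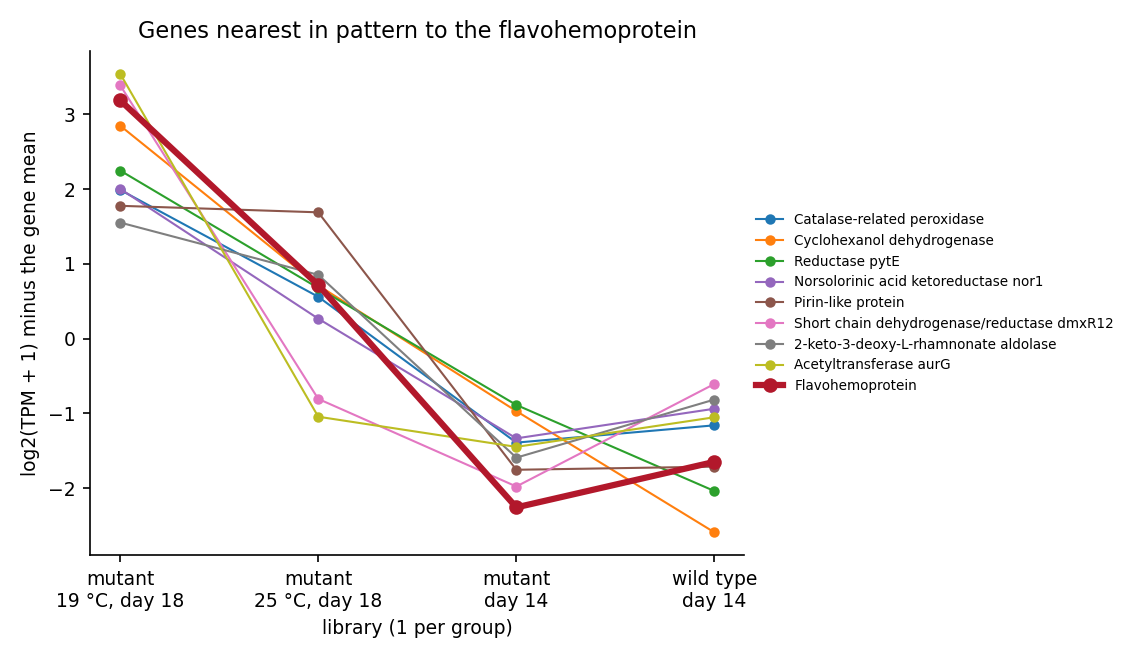
Log2 of TPM plus 1 minus the mean of the gene in the 4 libraries, for the flavohemoprotein (thick red line) and the 8 genes nearest to it, where lines only join the values of a gene. All 9 genes are highest at 19 °C, and the flavohemoprotein has the lowest value of the group in the mutant on day 14.

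The gene numbers place the flavohemoprotein beside genes with other patterns. Gene numbers are taken here as an order in the table, since no coordinates were used. Of the 10 genes from 5 numbers below to 5 above, 4 with no database hit, directly below it, were listed at 0 in every library, and the lowest number of the 10 (gene03957) lay between 1.01 TPM and 5.11 TPM. At the next higher number an acetate permease A gene (gene03963), whose counterpart takes up acetate in Aspergillus nidulans, had 129.2 TPM at 19 °C, 36.9 TPM at 25 °C, 28.5 TPM in the mutant on day 14 and 19.3 TPM in the wild type. This neighbour was also highest at 19 °C, with a log2 ratio of 1.78 over 25 °C and of 2.14 over the mutant on day 14, but had a log2 ratio of only 0.36 at 25 °C on day 18 over day 14.

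The next genes did not share the peak at 19 °C. A gluconate pathway dehydrogenase hit (gene03964) lay between 8.20 TPM and 18.2 TPM, and a sorbitol dehydrogenase (gene03965) had 4.10 TPM at 19 °C, 1.95 TPM at 25 °C, 12.1 TPM in the mutant on day 14 and 1.64 TPM in the wild type. Inositol oxygenase (gene03966) had 5.46 TPM, 6.59 TPM and 8.15 TPM in the mutant libraries and was listed at 0 in the wild type. D-galacturonate reductase (gene03967), an enzyme of pectin sugar breakdown, had 17.8 TPM at 19 °C beside 8.50 TPM at 25 °C, against 43.6 TPM in the mutant and 32.1 TPM in the wild type on day 14.

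**Figure D5:**
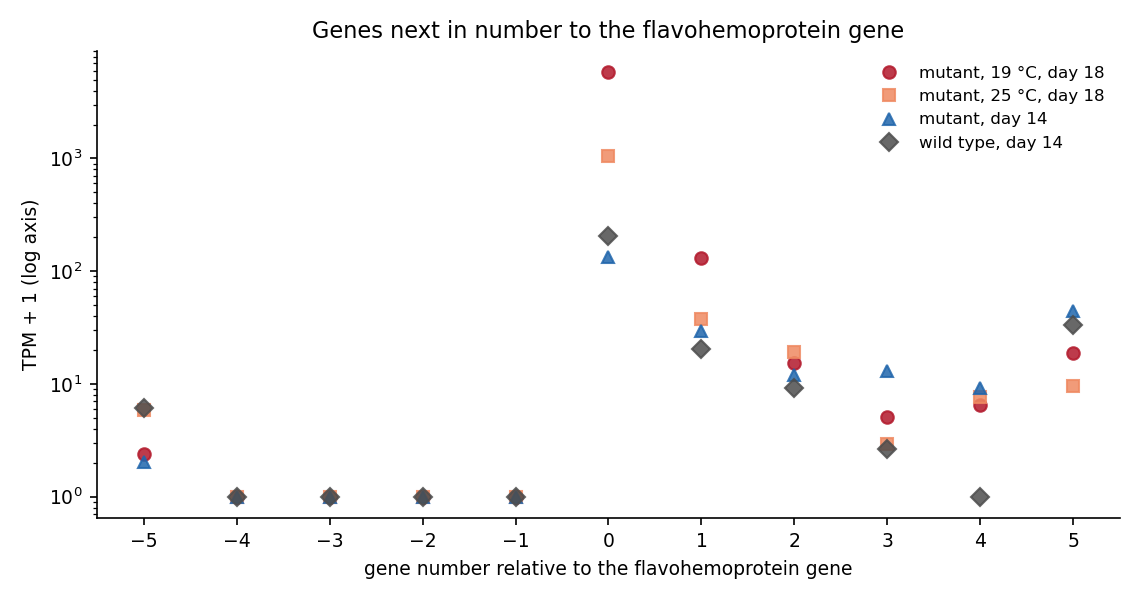
TPM plus 1 on a log axis of the flavohemoprotein gene (position 0) and of the 5 genes on either side of it by gene number, with 1 point per library. The flavohemoprotein is above its neighbours in every library. In the mutant on day 14 it is at 133.4 TPM and D-galacturonate reductase at position 5 is at 43.6 TPM. The 4 genes directly below the flavohemoprotein in number are at 0, and the acetate permease A gene at position 1 is highest at 19 °C, at 129.2 TPM.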

How the data were processed

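The authors deposited a table of TPM values, 1 column per library, with 2 decimals, and each column was assigned through the library name of its sample. Per the labels' protocols, the SMARTER mRNA-Seq kit was used on total RNA. Aligner, counting tool, genome build and annotation: not given in the sources used here. Gene names are best database hits in the table, and roles are those of the hit.

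Ratios are differences of log2(TPM + 1) between libraries, for genes that reach 1 TPM in one of them, and 2-fold is the threshold. With 1 library per group no test or count model was run. Of the genes, 779 were at 0 in all 4 libraries. The ratio step was tested on simulated data. Python 3.11.15, pandas 2.3.3, NumPy 2.4.6 and matplotlib 3.10.9 were used.

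The flavohemoprotein gene and the lists were chosen with earlier results of these data known. Context lists are text patterns in the annotation, and 14 of 138 genes caught only by a word or domain name were left out after values were seen. Named genes come from the members of the reductase list, the list members with the highest or lowest ratio at 10 TPM or more or with a direct role, the 8 nearest in pattern and 5 neighbours by number on each side. Also named, after their values were seen, are 5-aminolevulinate synthase, ferrochelatase, xanthine dehydrogenase, wetA, a nit-4 hit (gene06780), the nmr gene, the protoglobin gene, gene06171, gene05911 and gene10291. The same holds for a molybdenum cofactor sulfurase gene (gene09584), a 6-phosphogluconolactonase hit (gene02571) and cytochrome c oxidase subunit 8 (gene07046). It also holds for abaA, a chitin synthase A gene (gene08947) and a chitin synthase export chaperone gene (gene08159). Alternatives were pseudocounts of 0.1 and 5, filters of 0 and 10 TPM, a 4-fold threshold, and rescaling by the median ratio or without the 20 highest genes.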

Additional observations from a re-analysis of the deposited data

Results flagged for a closer look

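Each day 18 mutant library was set against the same day 14 mutant library. Within the 124 genes of the lists, a pair of genes then went past 2-fold in opposite directions at the 2 temperatures. The share of all genes that did so was not counted, so whether this pair is many or few is not known. The formate or nitrite transporter family gene (gene08453) had a log2 ratio of 2.19 at 19 °C and of -1.94 at 25 °C, a difference of 4.14. The gene for chitin synthase regulatory factor 4 (gene01719) had -1.01 at 19 °C and 2.19 at 25 °C, a difference of -3.21. With the libraries set to a common median ratio its value at 19 °C was -0.48, no longer past 2-fold. Outside the lists, gene10291, which has no database hit, had 813.1 TPM at 19 °C, was listed at 0 at 25 °C and had 12.4 TPM in the mutant on day 14. None of these differences was tested, since each group has 1 library, and the flavohemoprotein itself was higher on day 18 at both temperatures.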

How the results depend on the processing

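The flavohemoprotein log2 ratio kept its direction in the 4 comparisons under each pseudocount and rescaling tried, and its side of 2-fold except between the strains, where rescaling by the median ratio gave -1.38. Its range was 2.47 to 2.66 between temperatures, 2.91 to 3.33 at 25 °C over day 14 and 5.40 to 5.998 at 19 °C over day 14. Among genes with a Swiss-Prot name it ranked 10 at 19 °C. Counts of genes past 2-fold were 5073 between the strains, 2931 between temperatures, 3552 at 25 °C over day 14 and 3272 at 19 °C over day 14, and at 4-fold 2133, 712, 839 and 547. With a pseudocount of 5 they were 1922 between temperatures and 2014 at 19 °C over day 14. Higher genes made up 74.4%, 33.7%, 36.7% and 22.2% of these calls as deposited and 48.8%, 45.4%, 57.0% and 59.2% at a common median ratio, a setting made to bring the all-gene median close to 0 (-0.08 to 0.04). With it, 32 of 117 tested list genes were past 2-fold in the higher direction between the strains and 31 in the lower. Over all 9222 genes tested these counts were 2281 and 2395. As deposited they were 55 and 15 of 118 list genes, or 46.6% and 12.7%, near the 40.7% and 14% of all genes. Of the 8 nearest genes 6 were the same with a pseudocount of 5. No paired analysis was possible because each group has 1 library, and for the same reason no replicate could be left out.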

Other observations

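A second gene with a globin domain, a protoglobin gene (gene02203), had 101.4 TPM at 19 °C, 201.6 TPM at 25 °C, 121.3 TPM in the mutant on day 14 and 5.89 TPM in the wild type. It was 20.6-fold higher in the mutant than in the wild type on day 14, where the flavohemoprotein was 1.53-fold lower, and 1.99-fold lower at 19 °C than at 25 °C, where the flavohemoprotein was 5.55-fold higher. The gene next in number to nitrite reductase (gene06171), which has a predicted peptidase domain, was also highest at 19 °C, at 479.7 TPM against 272.07 TPM at 25 °C, 250.08 TPM in the mutant on day 14 and 162.1 TPM in the wild type. In the values as deposited it did not pass 2-fold in any comparison. It lay just inside the threshold at 19 °C on day 18 over day 14, with a log2 ratio of 0.94.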
